A study of Mus musculus with 3 samples.

Results

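In libraries of endothelial cells (EC) sorted from mouse Peyer's patches (PP), the lymphoid follicles of the small intestine, 264 of all 11466 quality-filtered cells were chosen by a rule on UMIs, at least 4 of *Colec12*, *Ltc4s*, *Lyve1* and *Hamp* in sum and the limits that follow. A UMI is a tagged mRNA molecule, counted once. The 264 cells also had to hold at least 3 UMIs of *Pecam1*, *Cdh5*, *Egfl7*, *Emcn* and *Flt1*, fewer UMIs of 5 fibroblast genes than that, at most 1 UMI of the lymphatic genes *Mmrn1*, *Reln* and *Prox1*, and at most 3 UMIs of the high endothelial genes *Chst4*, *Gcnt1*, *Chst2* and *Enpp2*. They are called the Colec12/Ltc4s/Lyve1/Hamp cells below. Since the UMIs of these genes chose the cells, the levels of the gate genes in them are descriptions, and differences from other cells carry no test.

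The cells came from 3 droplet-based 3′ libraries of sorted PP EC. The control library is labelled wild-type with the strain C57BL/6, and the study's methods describe controls as littermates without the Cre transgene. The EC-iCOUPOE libraries, replicates 1 and 2, came from CDH5(PAC)CreERT2;COUP-TFIIOE/OE mice, in which a Cre driven by the *Cdh5* promoter, active throughout the endothelium, switches on a COUP-TFII transgene after tamoxifen. Mice were 6 to 10 weeks old, and cells were isolated 14 to 19 days after tamoxifen. The study names wild-type mice beside its tamoxifen-treated controls without Cre, and its wording does not settle whether the wild-type mice received tamoxifen. How many mice entered each library is not given in the sources used here, cohorts of males and females were processed together, and with 1 control library no spread between control samples can be measured. The control library held 17341398 UMIs in 6080 barcodes, replicate 1 held 17417260 in 4959, and replicate 2 held 3548983 in 1441. Of these barcodes 5473, 4750 and 1243 passed the filters. The libraries differed before any comparison. The matrix of replicate 1 was written by Cell Ranger 3.1.0 and those of the other libraries by 3.0.2. The control library and replicate 2 shared 12 barcodes, none of them a Colec12/Ltc4s/Lyve1/Hamp cell. Lymphatic EC numbered 0 in the control library, 888 in replicate 1 and 102 in replicate 2, although all samples are labelled blood EC.

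Blood leaves the capillaries of a PP through venules. Postcapillary venules (PCV) display P-selectin and the chemokine-binding receptor ACKR1, and high endothelial venules, lined by high endothelial cells (HEC), display sulfated carbohydrate ligands for L-selectin, the chemokine CCL21 and, in the gut, the addressin MAdCAM1, so that lymphocytes can stop and enter. COUP-TFII, encoded by *Nr2f2*, is a nuclear receptor that specifies venous identity and also takes part in lymphatic development. The genes that chose the cells have separate functions. *Colec12* encodes a collectin scavenger receptor, *Ltc4s* the enzyme that conjugates leukotriene A4 with glutathione, *Lyve1* a hyaluronan receptor best known from lymphatic EC, and *Hamp* the iron-regulating peptide hormone hepcidin, whose main source is the liver.

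On GRCm38, *Ltc4s* lies at chr11:50236461-50238616, *Lyve1* at chr7:110850607-110863239 and *Hamp* at chr7:30942368-30944032, all on the minus strand. Outside the rule, *Madcam1* lies at chr10:79664559-79668537 on the plus strand and *Ccl21a* at chr4:42772860-42773993 on the minus strand. The sequences upstream of 4 of these genes are shown because a nuclear receptor was overexpressed and because *Madcam1* and *Ccl21a* are the abundant venular genes of these cells. They are RefSeq sequences of GRCm38.p6, each from the gene's own strand, at chr11:50238617-50238782, chr7:30944033-30944279, chr10:79664309-79664558 and chr4:42773994-42774241. Capitals mark AAGTG, the core of Nkx2 factor motifs, and TGACCC, a half-site of COUP-TFII.
Ltc4s: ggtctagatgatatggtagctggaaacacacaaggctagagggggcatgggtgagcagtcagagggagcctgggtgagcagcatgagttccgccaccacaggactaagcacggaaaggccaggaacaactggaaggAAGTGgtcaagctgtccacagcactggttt
Hamp: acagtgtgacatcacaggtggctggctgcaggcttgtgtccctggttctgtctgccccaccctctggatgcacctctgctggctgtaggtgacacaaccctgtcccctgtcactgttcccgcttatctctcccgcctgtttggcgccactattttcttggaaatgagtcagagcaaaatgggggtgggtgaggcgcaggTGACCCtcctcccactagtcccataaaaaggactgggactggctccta
Madcam1: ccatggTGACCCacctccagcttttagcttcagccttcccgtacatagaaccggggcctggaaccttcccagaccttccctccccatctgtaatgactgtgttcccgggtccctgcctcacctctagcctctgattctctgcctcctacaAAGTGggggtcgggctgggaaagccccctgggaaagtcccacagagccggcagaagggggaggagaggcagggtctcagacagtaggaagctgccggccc
Ccl21a: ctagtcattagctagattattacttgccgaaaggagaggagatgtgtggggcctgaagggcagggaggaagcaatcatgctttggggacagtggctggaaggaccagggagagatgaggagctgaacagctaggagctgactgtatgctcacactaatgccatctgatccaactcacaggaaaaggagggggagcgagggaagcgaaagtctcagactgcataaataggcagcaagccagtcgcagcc
On the gene's strand, AAGTG begins 30 bases before the start of *Ltc4s* and 100 bases before that of *Madcam1*, and TGACCC begins 48 bases before the start of *Hamp* and 244 bases before that of *Madcam1*. Both strands were searched, and on either strand of the 250 bases upstream AAGTG occurs in 40.7% and TGACCC in 11.6% of 32851 mouse promoters. AGGTCA, another nuclear receptor half-site that shares the letters GGTCA with TGACCC read on the opposite strand, is present in 14.0% of promoters and was found on neither strand of the 4 windows. The windows shown hold 166 bases for *Ltc4s*, 247 for *Hamp*, 250 for *Madcam1* and 248 for *Ccl21a*. The shares of promoters are over full windows of 250 bases. The study's reporter constructs place its *Madcam1* element upstream of the shorter construct, counted from the study's own start site. Where the element lies relative to the window shown was not determined, and the marked letters were not matched to it. A match of letters is a description, not a site, and the absence of a match covers only these windows.

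The Colec12/Ltc4s/Lyve1/Hamp cells were almost all from EC-iCOUPOE replicate 1. There were 3 of 2469 blood EC in the control library, 251 of 3613 in replicate 1 and 10 of 966 in replicate 2. These are 0.122% (95% exact Clopper-Pearson interval 0.0251 to 0.355), 6.95% (6.14 to 7.83) and 1.04% (0.498 to 1.90) of blood EC. The intervals of the 3 libraries overlap for none of the pairs, but they cover counting error only, and replicate 2 held far fewer of these cells than replicate 1 of the same genotype. Depth differed between libraries too. The median UMIs per cell were 5156, 4723 and 2665 in the chosen cells and 1636.5, 2638.5 and 2228 in other blood EC. After thinning each cell to 1000 UMIs, 0 of 1905, 39 of 2943 and 3 of 708 blood EC met the rule. The 0 of the control library allows a share of up to 0.194% by the exact interval, and replicates 1 and 2 stood at 1.32% (0.944 to 1.81) and 0.424% (0.0875 to 1.23). At equal depth the intervals of replicates 1 and 2 overlap, and so do those of control and replicate 2.

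*Ltc4s* was the most frequent of the 4 genes. In replicate 1, 208 of 251 cells held a UMI of *Ltc4s*, 193 of *Colec12*, 113 of *Lyve1* and 24 of *Hamp*. Of 1976 summed UMIs *Ltc4s* gave 44.1%, *Colec12* 27.4%, *Lyve1* 18.2% and *Hamp* 10.2%. The cells combined these genes in different ways. UMIs of exactly 1, 2, 3 and 4 of the genes were held by 42, 134, 72 and 3 cells, and *Colec12* and *Ltc4s* were found together in 161. *Hamp* differed from the other 3 genes in being concentrated in few cells. It led 15 cells with a median of 12 and at most 35 UMIs, whereas the 113 cells led by *Ltc4s* had a median of 5 *Ltc4s* UMIs. Total UMIs of these 251 cells ran from 1083 to 14373. The sum of the 4 genes per cell ran from 4 to 37 with a median of 6, and 45 cells of replicate 1 stood at 4, just inside the rule, and 77 at 3, just outside. The 45 and the 77 cells had *Madcam1* at 4534 and 4353 CPM and *Ccl21a* at 4870 and 4267 CPM, near each other, but *Selp* at 119 and 244 CPM and *Ackr1* at 574 and 410 CPM. CPM are the UMIs of a gene divided by all UMIs of a population in a library and scaled to a common total.

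**Figure D1:**
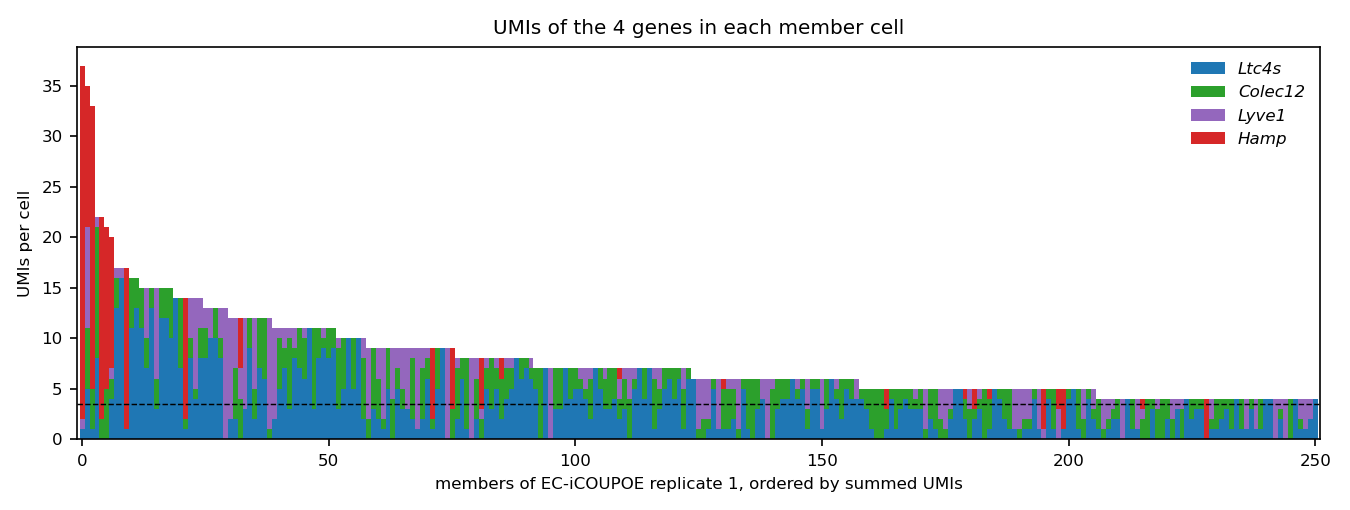
UMIs of *Ltc4s*, *Colec12*, *Lyve1* and *Hamp* (stacked bars, y axis) in each of the 251 Colec12/Ltc4s/Lyve1/Hamp cells of EC-iCOUPOE replicate 1, ordered by their sum along the x axis, with the dashed line between 3 and 4 UMIs marking the rule (the cells are labelled members). *Hamp* makes up most of the highest bars, up to 37 UMIs, and *Ltc4s*, *Colec12* and *Lyve1* are mixed in most other cells.

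The summed levels followed this order in replicate 1 only, and in control and replicate 2 *Hamp* came second to *Ltc4s*. *Colec12* stood at 64.8 CPM in the 3 control cells, a single UMI, at 414 CPM (exact Poisson interval 380 to 450) in replicate 1 and at 183 CPM (67.2 to 399) in replicate 2. *Ltc4s* stood at 1167, 666 (623 to 712) and 1191 CPM. *Lyve1* stood at 0, 275 (247 to 305) and 550 CPM (326 to 869), and *Hamp* at 973, 154 (134 to 177) and 611 CPM, where the control value came from 1 cell with 15 UMIs and the value of replicate 2 from 1 cell with 20. Of the 3 control cells 2 were led by *Ltc4s* and 1 by *Hamp*.

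Other populations held these genes too. HEC of replicate 1, which were chosen without the 4 genes, had *Colec12* at 248 CPM (228 to 270), *Ltc4s* at 264 CPM (243 to 286), *Lyve1* at 146 CPM (130 to 162) and *Hamp* at 207 CPM (188 to 226), the last above its level in the Colec12/Ltc4s/Lyve1/Hamp cells. Lymphatic EC of replicate 1 had *Lyve1* at 3253 CPM (3183 to 3325) and *Ltc4s* at 327 CPM (305 to 351), but *Colec12* at only 33.3 CPM (26.6 to 41.3) and *Hamp* at 0. PCV and other blood EC of replicate 1, from which cells with a sum of 4 or more are removed, had *Ltc4s* at 33.3 and 40.2 CPM. The rule raised the sum of these genes in the chosen cells and not in HEC or lymphatic EC, so the place of the chosen cells among these levels is a description only.

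**Figure D2:**
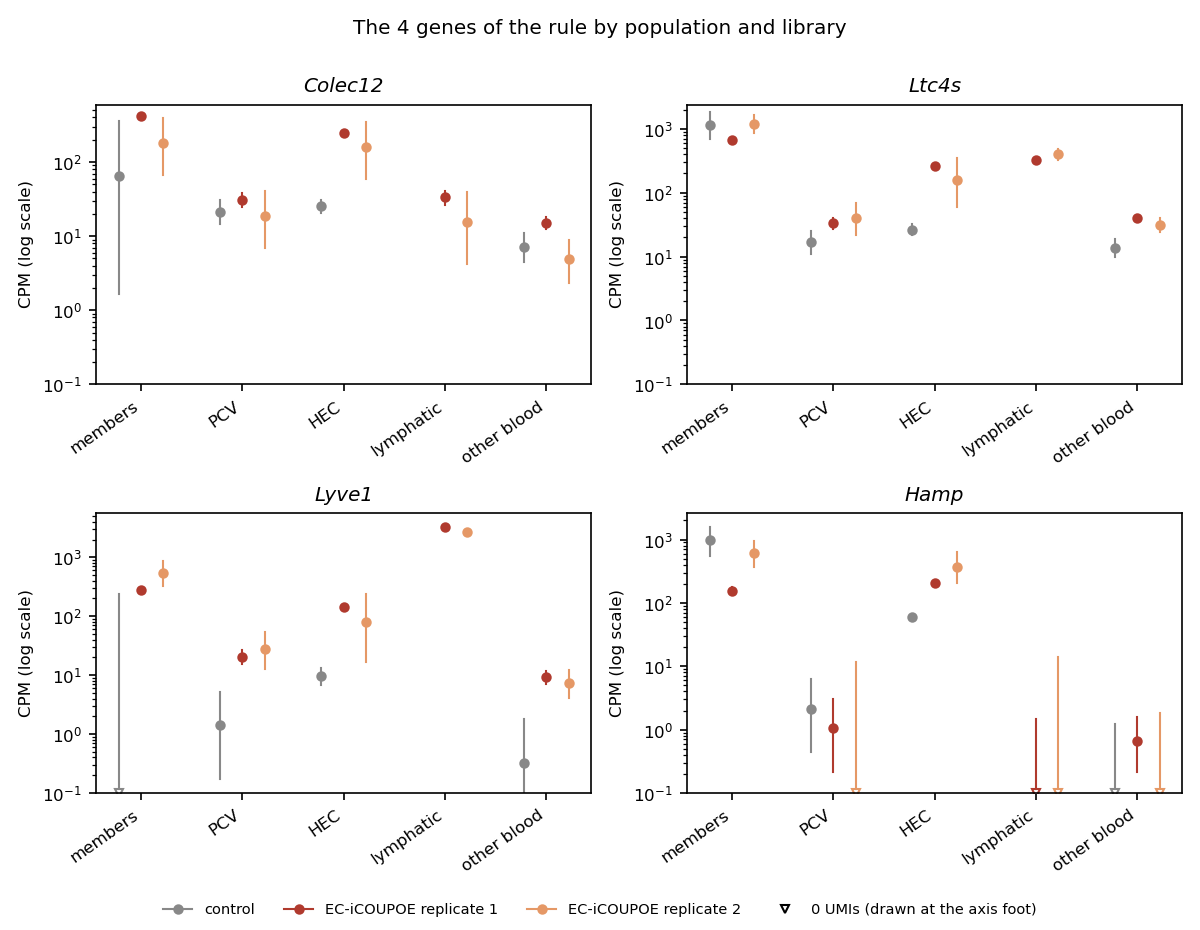
Level of the 4 genes of the rule in CPM (y axis, log scale) by population (x axis) and library (colour), with vertical lines for 95% exact Poisson intervals and open triangles for 0 UMIs. In EC-iCOUPOE replicate 1 *Colec12* is highest in the Colec12/Ltc4s/Lyve1/Hamp cells at 414 CPM and *Lyve1* in lymphatic EC at 3253 CPM, and *Hamp* is at or near 0 outside these cells and HEC.

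Free RNA in the droplets can give UMIs to cells that do not express a gene. Kept cells without any UMI of the 5 endothelial genes served as a reading of it. In replicate 1 there were 103 such cells (median 2768 UMIs), of which 3 held *Colec12*, 0 *Ltc4s*, 5 *Lyve1* and 0 *Hamp*, and 0 of 103 allows a share of up to 2.91% (3 counts, or 3.52% by the exact interval). The Colec12/Ltc4s/Lyve1/Hamp cells of the same library held *Ltc4s* in 82.9% of cells at a median of 4723 UMIs, a share fixed in part by the rule. The control library was different, since it held 2622 cells without an endothelial UMI, nearly all with fibroblast UMIs, and 1130 of them carried *Colec12* (236 CPM), where their own and free RNA cannot be told apart. Of 149 control cells with neither endothelial nor fibroblast UMIs (median 1353 UMIs) 1 held *Colec12* (0.671%, 4.49 CPM), beside 1 of 55 in replicate 1. The 11 genes of the fibroblast list summed to 17.6 CPM in the chosen cells of replicate 1 and to 64.8 CPM, a single UMI, in those of control. The rule itself limits 5 of these genes, so their low level is no reading of fibroblast RNA, and the most abundant of the list in replicate 1 was *Col3a1*, outside the rule, at 7.64 CPM. The part of fibroblast RNA in the *Colec12* level was not tested.

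Grouping that ignores the 4 genes gave, for HEC alone, a comparison of genotypes that the rule does not fix. In the other 2 groups below, the cells that reach 4 UMIs are the chosen cells themselves. Among HEC, 23 of 547 control cells (4.20%, interval 2.68 to 6.24) held at least 4 UMIs of the 4 genes, against 173 of 308 (56.2%, 50.4 to 61.8) in replicate 1 and 3 of 8 (37.5%, 8.52 to 75.5) in replicate 2. Median UMIs of these HEC were 6995, 6473.5 and 3426, so the control HEC were not the shallower ones, whereas in the other 2 groups below control was shallower than replicate 1. Among blood EC with at least 3 UMIs of *Selp* and *Ackr1* the counts were 2 of 401, 103 of 733 and 1 of 110 (0.499%, 14.1% and 0.909%), with median UMIs of 3205, 4103 and 2736. Among the remaining blood EC they were 1 of 1521, 148 of 2572 and 9 of 848 (0.0657%, 5.75% and 1.06%), with median UMIs of 1637, 2715.5 and 2243.5. The shares of all 3 groups were higher in replicate 1 than in control, with intervals apart. Outside HEC this restates the shares of chosen cells given above. Replicate 2 lay above control in each group, with overlapping intervals only for the *Selp* and *Ackr1* cells. The part of depth in the 2 groups outside HEC was not tested. This grouping was made after the data were seen, and no test of it was made.

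**Figure D3:**
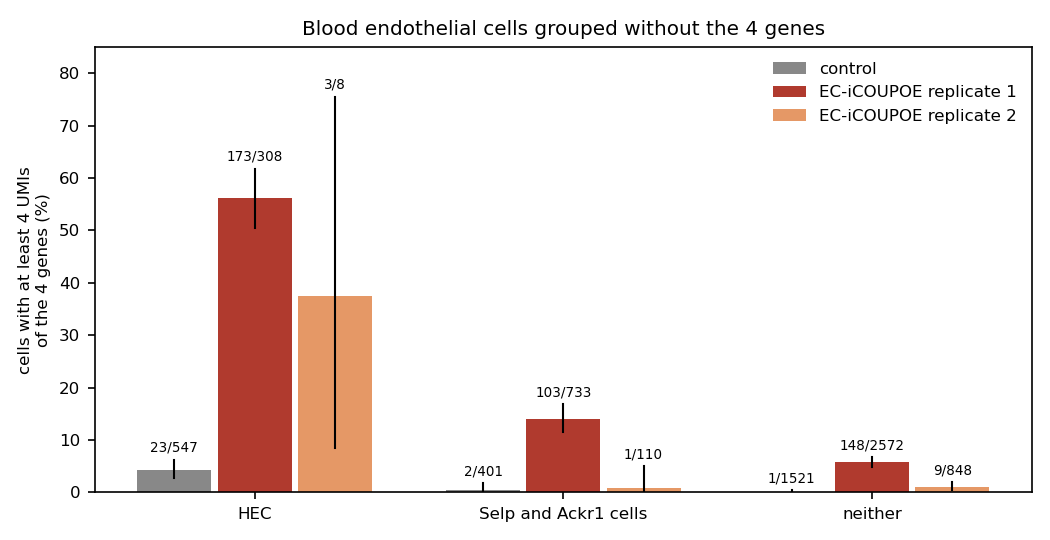
Percent of blood EC with at least 4 UMIs of the 4 genes (y axis) in HEC, in cells with *Selp* and *Ackr1* UMIs and in the remaining blood EC (x axis), by library (colour), with 95% exact Clopper-Pearson intervals and the numbers of cells above the bars. HEC of EC-iCOUPOE replicate 1 reach 56.2%, against 4.20% in control HEC.

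In HEC, *Colec12*, *Ltc4s* and *Lyve1* moved together. Control HEC had *Colec12* at 25.6 CPM, *Ltc4s* at 26.4 CPM and *Lyve1* at 9.66 CPM. Relative to these, *Colec12* was higher by 3.28 on the log2 scale in replicate 1 (counting interval 2.97 to 3.6) and by 2.65 in replicate 2 (1.17 to 3.82). *Ltc4s* was higher by 3.32 (3.02 to 3.64) and 2.61 (1.13 to 3.78), and *Lyve1* by 3.91 (3.42 to 4.45) and 3.06 (0.71 to 4.71). *Hamp* was higher by 1.81 and 2.67, but it sat in 26 control HEC, 29 HEC of replicate 1 and 1 of replicate 2, with up to 55 UMIs in a cell. Replicate 2 has 8 HEC, and its values are given for their direction only.

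The same genes outside HEC split by gene. In the remaining blood EC, *Ltc4s* was higher than in control by 2.88 on the log2 scale in replicate 1 (2.43 to 3.36) and by 1.77 in replicate 2 (1.23 to 2.33), and *Lyve1* by 6.88 and 5.61 over a single control UMI. *Colec12* was higher by 2.76 in replicate 1 (2.14 to 3.45) and equal in replicate 2 (0.01, −1.04 to 1.02). *Ltc4s* and *Lyve1* thus lay above control in both EC-iCOUPOE libraries in all 3 groups, and *Colec12* in both only in HEC. The lymphatic EC that hold most *Lyve1* RNA are present only in the EC-iCOUPOE libraries, and their part in the low *Lyve1* levels of the remaining blood EC (38.5 and 15.9 CPM) was not tested.

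The label of the cells was checked against marker lists. They passed the endothelial gate, with macrophage genes summing to 8.4 CPM and lymphocyte genes to 18.3 CPM in replicate 1, *C1qa*, *Csf1r*, *Mrc1* and *Cd3e* at 0, and 1 of 264 cells with a UMI of the macrophage genes searched per cell. The sinusoidal receptors *Stab2* and *Mrc1*, which often accompany *Lyve1* in liver and lymph node sinuses, were at 0. Of 19 genes of the iron and hepcidin list, which includes *Hamp*, 6 were at 0 in the chosen cells of replicate 1. Ferroportin (*Slc40a1*) and transferrin receptor (*Tfrc*) were among these 6, whereas the ferritin gene *Fth1* was the most abundant of the list at 4259 CPM. The 5-lipoxygenase *Alox5*, which makes the substrate of LTC4 synthase, was also at 0. *Slc40a1*, *Tfrc* and *Alox5* were low in other blood EC too, where the highest was *Tfrc* at 5.85 CPM in replicate 2. None of the 251 cells of replicate 1 was called a doublet, and 18 held at least 3 UMIs of dividing-cell genes.

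The venous label rested on few genes. *Ackr1* stood at 2204, 518 and 580 CPM in control, replicate 1 and replicate 2, against 28.1, 42.5 and 20.5 CPM in other blood EC and 2672, 1171 and 1639 CPM in PCV. PCV hold at least 3 UMIs of *Ackr1* and *Selp* and other blood EC fewer by definition, whereas the chosen cells were not filtered on them, so their place between both is fixed in part by the gates. *Selp* stood at 118 CPM in replicate 1, between other blood EC and PCV, where it is 587 CPM. *Nr2f2* stood at 324, 1813 and 1344 CPM, but the 1813 CPM of replicate 1 lie beside those of PCV (1864) and other blood EC (1758) of that library, so its level did not set these cells apart. Of 16 venous genes, the 11 outside the gates that could be compared included 0 at least 2-fold higher than in other blood EC, with a median log2 ratio of 0.12 in replicate 1 beside −0.05 over all genes, of which 0.768% were higher, so the count of 0 is near that of all genes. In replicate 1, 103 of 251 cells (41.0%) held at least 3 UMIs of *Selp* and *Ackr1* and 79 (31.5%) held none. The set is not called venous here.

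Outside the rule, most of the cells held *Madcam1*, the gut addressin bound by lymphocyte integrin α4β7, which was abundant in the other blood EC populations too. It was found in 3 of 3, 247 of 251 and 8 of 10 cells, against 8.24%, 2.91% and 16.8% of cells without an endothelial UMI (median 2615.5, 2768 and 3097 UMIs). Its level was 2464 CPM (1744 to 3382), 4897 CPM (4778 to 5018) and 4916 CPM (4186 to 5737). In replicate 1 this was above PCV (3152 CPM) and other blood EC (1972 CPM) and below HEC (7761 CPM). *Nkx2-3*, a homeodomain factor of intestinal EC, stood at 843, 292 and 214 CPM, against 734, 496 and 426 CPM in PCV. Against PCV, *Madcam1* was higher by 0.64 on the log2 scale in replicate 1 and by 0.09 in replicate 2, the latter turning negative when edgeR's TMM factors, which assume that most genes do not differ, shift the ratios of that library by −0.55.

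*Ccl21a*, the chemokine of HEC and lymphatic EC, divided the cells. It stood at 1621 CPM (1049 to 2393), 6578 CPM (6440 to 6719) and 10809 CPM (9713 to 11996), and reads of its near-identical copies cannot be told from it with certainty. In replicate 1, 124 of 251 cells (49.4%, 43.1 to 55.8) held 10 or more *Ccl21a* UMIs, 113 (45.0%) held 0 and only 14 lay between. Among PCV of that library 5.87% held 10 or more, among HEC 72.4%, among lymphatic EC 87.1% and among other blood EC 0.949%. The split was not particular to the chosen cells, since of 308 HEC 223 held 10 or more, 71 held 0 and only 14 lay between. In replicate 2 there were 3 of 10 chosen cells with 10 or more and in control 1 of 3. The 3 cells of replicate 2 held 117, 88 and 148 UMIs, and the last 2 were its only cells with a lymphatic gate UMI. These 2 cells stood at 41637 CPM, and the level of replicate 2 without them was not computed. In replicate 1, 14 of 251 cells held a lymphatic gate UMI. In replicate 1 the median UMIs of the cells with 10 or more and with 0 *Ccl21a* UMIs were 4815 and 4699, near each other.

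The *Ccl21a* groups of replicate 1, which were made after the data were seen, differed in other genes. Of 3713 genes compared, 39 were higher by 2-fold or more in the cells with *Ccl21a* and as many lower. Higher were the ubiquitin-like *Ubd* (by 1.55 on the log2 scale), the fucosyltransferase *Fut7* (1.41), the apolipoprotein *Clu* (1.77) and *Cd24a* (2.17), and lower were the fatty acid transporter *Cd36* (−1.73), the proteoglycan *Bgn* (−1.93) and *Tagln* (−2.06). Of the genes of the rule, *Colec12* was higher by 0.79 (0.52 to 1.06) in the cells with *Ccl21a* and *Hamp* was lower, at 76.6 against 245 CPM. *Ltc4s* and *Lyve1*, and *Nr2f2* outside the rule, lay within 0.12 of no difference. UMIs of the high endothelial gate, at most 3 by the rule, were found in 71.0% of cells with *Ccl21a* and 35.4% of those without.

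**Figure D4:**
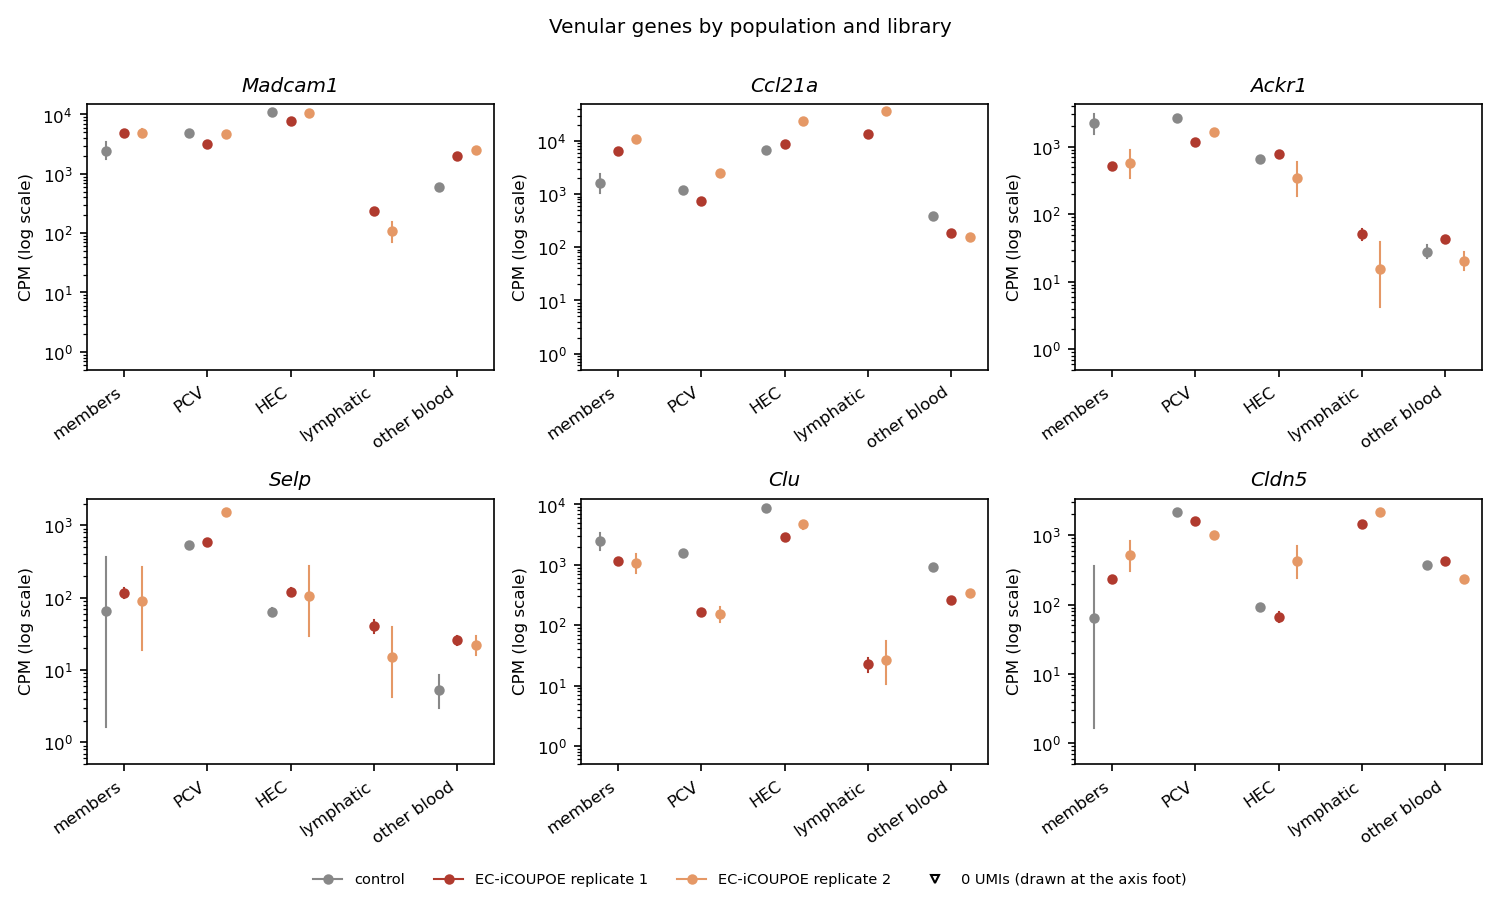
Level of *Madcam1*, *Ccl21a*, *Ackr1*, *Selp*, *Clu* and *Cldn5* in CPM (y axis, log scale) by population (x axis) and library (colour), with vertical lines for 95% exact Poisson intervals. For *Madcam1*, *Ccl21a* and *Clu* the Colec12/Ltc4s/Lyve1/Hamp cells of EC-iCOUPOE replicate 1 (4897, 6578 and 1145 CPM) lie between PCV and HEC of that library, and for *Selp* they lie with HEC.

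Against PCV, the chosen cells had more *Clu*, *Ccl21a* and basement membrane collagen and less *Fxyd6* and *Rasl11a*. A gene counts as higher or lower when its CPM differ at least 2-fold in the same direction in both EC-iCOUPOE libraries, since the 3 control cells are too few. Of 2643 genes with at least 20 UMIs in both populations together in each library, 17 were higher (0.643%) and 51 lower (1.93%), and 10 and 92 with TMM scaling. These shares are descriptions with no test. *Clu*, a secreted chaperone, stood at 1145 and 1069 CPM against 167 and 152 CPM in PCV of replicates 1 and 2, log2 ratios of 2.78 (2.63 to 2.93) and 2.81 (2.14 to 3.47). The thrombin receptor *F2r* followed with 2.45 and 2.92 and *Ccl21a* with 3.15 and 2.13. Most *Ccl21a* UMIs of replicate 2 came from 2 cells with a lymphatic gate UMI (88 and 148), and the ratio without them was not computed. *Col4a1* and *Col4a2*, which encode collagen IV, stood at 1.14 and 1.86 and at 1.32 and 2.99. The other higher genes of the first 10 were *Vamp5*, *Gchfr*, *Cd63*, *Cib1*, *Fscn1* and *Ubd*, of which *Cib1* and *Ubd* fell short of 2-fold with TMM scaling (0.75 and 0.66).

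Fewer UMIs than in PCV were found of the sodium pump modulator *Fxyd6*, with log2 ratios of −2.90 (−3.46 to −2.39) and −2.73 (−8.05 to −0.20), the aggrecanase *Adamts4* (−2.35 and −2.56), *Rasl11a* (−2.15 and −3.51), the immediate early receptor *Nr4a1* (−1.98 and −2.70) and the retinoic acid hydroxylase *Cyp26b1* (−1.77 and −1.81). The lymphangiogenic factor *Vegfc* was lower, at −1.71 and −2.03, where replicate 2 rests on 1 UMI and its interval reaches 0.53. *Ctsh*, *Lbp* and *Rasa4* were lower too, with 1 or 2 UMIs in replicate 2. When cells with 3 UMIs of the 4 genes were included, the ratios nearest to 0 of *Cyp26b1*, *Rasa4* and *Vegfc* came to −0.52, −0.43 and −0.86, no longer 2-fold. *Cldn5*, the claudin that seals endothelial junctions, was at 230 and 519 CPM against 1616 and 995 CPM in PCV, past 2-fold in replicate 1 alone (log2 −2.81 and −0.94). Beside 0.643% of all genes higher and 1.93% lower, 1 of 6 genes of the high endothelial list was higher and 1 of 13 junction and caveolar genes lower (*Cavin2*). Of the list of 15 immediate early genes 1 was lower (*Zfp36*), and *Nr4a1*, named above, is not in this count. These counts are too small to set the lists apart from all genes. In replicate 1 the immediate early genes had a median log2 ratio of −1.16, with *Fos* at 1784 against 3990 CPM, but −0.07 in replicate 2, beside 0.04 and 0 over all genes.

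HEC could be compared in replicate 1 alone. The chosen cells had less *Glycam1*, *Fut7* and *Ch25h* than HEC and more *Cldn5*, *Gpihbp1* and *Fgl2*, while the sulfotransferases *Chst4* and *Chst2* were kept low by the rule. Of 9314 genes, 296 were higher by 2-fold or more (3.18%) and 230 lower (2.47%), or 213 and 282 with TMM scaling. *Glycam1*, the mucin scaffold of L-selectin ligands, stood at 37.4 CPM (27.7 to 49.5) against 5325 CPM in HEC, a log2 ratio of −7.15 (−7.59 to −6.75). *Fut7* was lower, at −1.67 (−1.96 to −1.39), the cholesterol hydroxylase *Ch25h* at −1.23 and *Clu* at −1.33, whereas *Madcam1* (−0.66) and *Ccl21a* (−0.44) lay within 2-fold. Of 8 high endothelial genes outside the gate 3 were lower and none higher. The leukotriene-processing *Ggt5*, which turns LTC4 into LTD4, was at 2.29 CPM in the chosen cells and 28.5 CPM in HEC (−3.64).

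Beside the 3.18% of all genes that were higher than in HEC, 3 of 9 genes of the capillary list were higher, among them the lipase anchor *Gpihbp1* at 26.0 against 2.63 CPM (3.30) and *Cd36* at 84.0 CPM (1.45, 1.01 to 1.91). Of the angiocrine factors 5 of 11 were higher, with *Il33* (2.39) and *Wnt9b* (1.94). Of the lymphatic list 4 of 6 were higher, with *Fgl2* at 55.8 against 4.83 CPM (3.53) and *Fxyd6* (2.48). Both *Fgl2* and *Fxyd6* lay below PCV in replicate 1 (−1.58 and −2.90). *Cldn5* was higher than in HEC by 1.78 (1.49 to 2.07). Lower than in HEC, where 2.47% of all genes were lower, were *Gzmb*, a lymphocyte protease, at 0 against 44.8 CPM, the mast cell protease *Cpa3* (−4.24), *Cd69* (−3.41) and *Coro1a* at 11.5 CPM (−1.27). *Cd74* of the class II pathway stood at 35.1 against 79.0 CPM. These 5 genes were picked after their values were seen, and whether HEC carry RNA of adherent leukocytes was not tested.

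The chosen cells of replicate 1 were also placed between PCV and HEC by genes picked elsewhere. Genes were picked in the control library, where HEC exceeded PCV by 4-fold or more in 126 genes and lay as far below PCV in 183. In replicate 1 the median log2 ratio to PCV of the 126 was 2.47 in HEC and 1.52 in the Colec12/Ltc4s/Lyve1/Hamp cells, and that of the 183 was −1.97 in HEC and −1.21 in the chosen cells. The medians of the chosen cells thus lay between those of PCV and HEC on both sides. In replicate 1, 104 of the 126 and 159 of the 183 still differed 2-fold between HEC and PCV. The chosen cells lay between in 84 and 138 of these, at or beyond HEC in 18 and 18, and at or past PCV in 2 and 3. The rule limits UMIs of the high endothelial gate in the chosen cells, and the gate genes are not among the 126. The 126 include the dividing-cell genes *Top2a*, *Birc5* and *Pclaf*, and the part of dividing cells was not tested. Both ratios share the PCV of replicate 1, so the points are not independent.

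**Figure D5:**
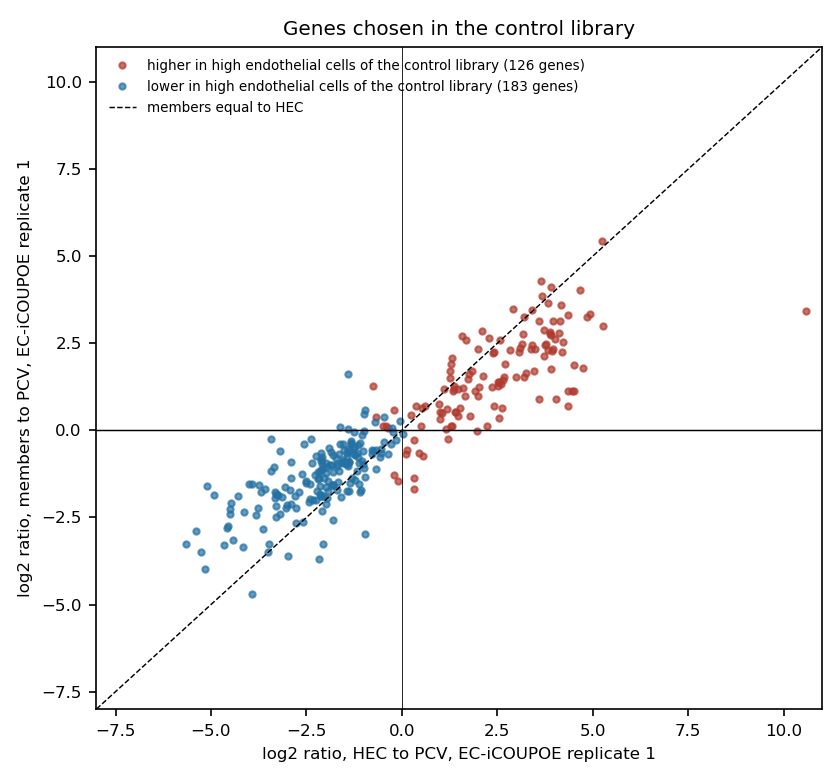
Log2 ratio to PCV of EC-iCOUPOE replicate 1 for genes chosen in the control library (126 higher, red, and 183 lower, blue, in HEC), with HEC on the x axis and the Colec12/Ltc4s/Lyve1/Hamp cells on the y axis and a dashed line where both are equal. The medians over the 126 genes are 2.47 in HEC and 1.52 in the Colec12/Ltc4s/Lyve1/Hamp cells, and over the 183 genes −1.97 and −1.21.

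Lymphatic EC differed from the chosen cells in most genes of lymphatic identity. Of 2439 genes compared in both EC-iCOUPOE libraries, 72 were higher (2.95%) and 204 lower (8.36%). Of 14 lymphatic genes outside the gate 10 were lower and none higher. The VEGF-C receptor *Flt4* stood at 0, 29.8 and 122 CPM in the chosen cells, against 1150 and 545 CPM in lymphatic EC, log2 ratios of −5.27 and −2.16. Podoplanin (*Pdpn*) was found as 1 UMI in each EC-iCOUPOE library and as 0 in control. *Fgl2* was lower, at −5.06 and −5.73, *Maf* at −5.12 and −4.96 and *Fxyd6* at −5.58 and −5.18. The genes that chose the cells stood at log2 ratios of −3.56 and −2.29 for *Lyve1*, 1.03 and 1.56 for *Ltc4s* and 3.63 and 3.58 for *Colec12*, values that the rule raised and that are given as a description only.

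*Ccl21a* was lower than in lymphatic EC, with log2 ratios of −1.06 and −1.76. Among single genes higher than in lymphatic EC, chosen after their values were seen, was *Madcam1*, higher by 4.40 (4.28 to 4.53) and 5.51 (4.93 to 6.15), *Clu* by 5.67 and 5.31, the L-selectin ligand *Cd34* by 3.14 and 3.83, the fenestral diaphragm protein *Plvap* by 3.0 and 2.81 and the chemokine *Cxcl10* by 3.51 and 5.42. Of the immediate early list 7 of 16 genes were higher and none lower, beside 2.95% and 8.36% of all genes.

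Against other blood EC, mostly capillary cells, the chosen cells had more *Ccl21a*, *Ubd* and *Ltb* and less *Rgcc* and *Plat*. Of 8069 genes 62 were higher (0.768%) and 47 lower (0.582%) in both libraries, or 44 and 95 with TMM scaling. *Ccl21a* led with 6578 and 10809 CPM against 188 and 157 CPM, log2 ratios of 5.13 and 6.10. Most of its UMIs in replicate 2 came from 2 cells with a lymphatic gate UMI. *Ubd* followed at 353 and 244 against 10.5 and 13.2 CPM (5.07 and 4.21), then lymphotoxin beta (*Ltb*, 3.73 and 4.02), the calcium kinase *Camk4* (2.78 and 2.61), the matrix protein *Tgfbi* (2.33 and 3.18) and the cytokine receptor subunit *Csf2rb2* (2.30 and 2.58). The complement factor *Cfb* (3.95 and 2.21), the complement inhibitor *Cd55* (2.13 and 3.41), *Cxcl9* (2.01 and 4.58) and *Ch25h* (1.72 and 3.41) were also higher, with *Ces2g*, *Gchfr*, *Gas7* and *Slc16a1*. For *Cfb* and *Gas7* replicate 2 rests on 2 and 1 UMIs and its interval includes 0, and *Gas7* came to 0.89 with cells of 3 UMIs included.

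*Rgcc*, *Plat* and *Sparcl1* were among the lower genes. *Rgcc*, a cell cycle regulator abundant in capillary EC, stood at 24.4 and 61.1 against 264 and 611 CPM (−3.43 and −3.32), the tissue plasminogen activator *Plat* at −2.52 and −2.91, *Sparcl1* at −2.43 and −2.21 and *Igfbp4* at −1.66 and −2.68. *Scgb3a1*, *Thrsp*, *Rasl11a*, *Ddit4* and *Rflnb* were lower as well, although *Rflnb* turned to 0.48 with cells of 3 UMIs included. Beside 0.768% of all genes higher and 0.582% lower, 2 of 12 genes of the capillary list were lower (*Rgcc* and *Cd36*) and none higher, of the coagulation list *F2r* and *Tfpi* were higher and *Plat* lower among 10, and of the arterial list 0 of 13 passed in both libraries, near the share of all genes, with a median log2 ratio of −1.94 in replicate 1 and 0 in replicate 2, where 10 cells hold 32749 UMIs and a single UMI is 30.5 CPM. The notch target *Hey1* stood at 6.11 CPM in replicate 1 and 0 in the other libraries.

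The families of the genes that chose the cells were described from lists. Of 9 scavenger and endocytic receptors compared with other blood EC, 1 was higher and 1 lower (*Cd36*). Against PCV 0 of 6 passed the 2-fold rule. Of the leukotriene and prostaglandin genes 0 of 6 compared passed the rule against other blood EC. The prostaglandin transporter *Slco2a1* was abundant at 1232, 1164 and 733 CPM, near PCV (log2 −0.22 and −0.55), and the leukotriene receptor *Cysltr1* stood at 324, 64.2 and 91.6 CPM. Of the iron genes 0 of 7 and of the BMP genes 0 of 16 passed it. With 0.768% of all genes higher and 0.582% lower in this comparison, counts of 0 or 1 in lists of this size are near those of all genes. *Id1* and *Id3*, targets of the BMP signals that also drive hepcidin in the liver, stood at 400 and 1022 CPM in replicate 1, log2 ratios of −0.67 and −0.70 to other blood EC.

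The cells of replicate 1 led by each gene differed in *Ccl21a* and *Cldn5*. *Ccl21a* stood at 7665 CPM in the 54 cells led by *Colec12*, 6763 in the 113 led by *Ltc4s*, 4842 in the 46 led by *Lyve1* and 1599 in the 15 led by *Hamp*, and *Cldn5* at 158, 216, 518 and 26.4 CPM. *Flt4* stood at 12.7, 37.8, 44.5 and 39.6 CPM, near each other in the *Ltc4s*-, *Lyve1*- and *Hamp*-led cells. Over the 251 cells Spearman's rho was 0.413 for *Colec12* with *Madcam1*, 0.307 for *Colec12* with *Ccl21a* and −0.357 for *Ltc4s* with *Lyve1*. These are descriptions over cells that share a library and were chosen on the sum of these genes, which itself sets genes of the rule against each other.

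Whole profiles, read without any gate gene, placed the cells differently depending on the profiles used. Each cell was assigned to the population whose summed profile gave its UMIs the highest likelihood. With profiles of the other libraries, 173 of 251 cells of replicate 1 were nearest to PCV, 52 to other blood EC, 13 to the chosen cells, 9 to HEC and 4 to lymphatic EC. However, 188 of 308 HEC of replicate 1 also went to PCV, so these profiles separated HEC of that library poorly from PCV. PCV (577 of 630), lymphatic EC (845 of 888) and other blood EC (2110 of 2424) of replicate 1 mostly went to their own profile. With profiles of the same library from which the cell's own UMIs were taken out, a step added after the data were seen, 140 cells (55.8%) were nearest to the other chosen cells, 49 to HEC, 30 to other blood EC, 28 to PCV and 4 to lymphatic EC. In this step 76 of 308 HEC were also nearest to the chosen cells and 219 to HEC. Without a profile of the chosen cells, 144 of the chosen cells went to HEC, 62 to other blood EC, 41 to PCV and again 4 to lymphatic EC. The 3 control cells went to PCV (2) and HEC (1).

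Between genotypes, the chosen cells can be compared only against 3 control cells with 15424 UMIs, where 1 UMI is 64.8 CPM. Of 6888 genes, 137 were higher (1.99%) and 721 lower (10.5%) by 2-fold or more in both EC-iCOUPOE libraries. TMM scaling raised the log2 ratios by 0.86 and 0.45 and turned the split to 391 higher and 148 lower, so how many genes pass on either side rests on the scaling, although a shift of this size turns the sign of none of the 858. With cells of 3 UMIs included the split was 391 higher and 407 lower. Under CPM the counting intervals excluded 0 in both libraries for 24 and 51 of them. *Ly6a*, a surface antigen of activated endothelium, stood at 389 CPM in control and 2120 and 2382 CPM in EC-iCOUPOE, log2 ratios of 2.45 (1.32 to 3.89) and 2.61 (1.43 to 4.10). *Aqp1*, a water channel, stood at 2658, 175 and 214 CPM (−3.93 and −3.64), and *Serpina1b*, a protease inhibitor with near-identical paralogues that share reads, at 1491, 48.9 and 30.5 CPM (−4.93 and −5.61). *Ly6a* and *Serpina1b* differed in the same direction in PCV (2.92 and 2.76, −6.69 and −7.09) and in other blood EC (2.18 and 2.29, −6.49 and −7.69).

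The other genes among the 10 ranked highest were *Aplnr*, *Snrpe*, *Rpl29*, *Nectin2*, *Timp3*, *Isg15*, *Prcp*, *Hspa5* and *Cebpd*, each with 1 to 3 control UMIs. Among them *Rpl29*, a ribosomal protein gene, was higher by 2.72 and 2.88, and by 3.19 and 3.53 in PCV. Other lower genes, *Ltbp1*, *Rflnb*, *Ate1*, *Gusb*, *Fkbp11*, *Hsf1* and *Gpr146*, had 3 to 7 control UMIs and all but *Rflnb* and *Ltbp1* had intervals that included 0 in replicate 2. The calls of *Hspa5*, *Isg15* and *Snrpe* were lost with cells of 3 UMIs included, and those of *Aplnr*, *Nectin2*, *Timp3*, *Fkbp11*, *Gusb* and *Hsf1* at a threshold of 6 UMIs. *Nr2f2* itself, the overexpressed gene, was higher by 2.48 (1.26 to 4.11) and 2.05 (0.72 to 3.74), and *Madcam1* by 0.99 (0.53 to 1.49) and 1.00 (0.48 to 1.55), where 31 of 38 control UMIs came from 1 of the 3 cells. In PCV the ratios of *Madcam1* were −0.62 and −0.07 and in other blood EC 1.70 and 2.04. Transgenic and endogenous *Nr2f2* were not told apart here, and with 1 control library genotype and library cannot be told apart.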

How the data were processed

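The 3 libraries are droplet-based 3′ single-cell libraries of PP EC. The authors counted UMIs with Cell Ranger against mm10, and the deposited values are raw counts per gene and barcode, whole numbers without scaling. The labels give Cell Ranger 3.0.2, whereas the header of replicate 1 gives 3.1.0. Only the 31053 genes shared by the 3 feature lists were used.

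A barcode was kept if it had 500 or more genes, 1000 or more UMIs and no more than 10% of UMIs from mitochondrial genes. Doublets were called with Scrublet (scanpy 1.11.5, expected rate 6%) in 132, 46 and 4 cells of control, replicate 1 and replicate 2, and none was removed, since none was a chosen cell. Colec12/Ltc4s/Lyve1/Hamp cells followed the UMI rule given with the results. Of the remaining EC, lymphatic cells held at least 3 UMIs of the lymphatic gate, HEC at least 4 of the high endothelial gate, PCV at least 3 of *Selp* and *Ackr1*, and the rest of the blood EC are called other blood EC. Members and gene lists were chosen with earlier results of these data known.

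UMIs were summed per population and library. The 95% intervals (exact Poisson for counts, Clopper-Pearson for shares, conditional on both counts for ratios) cover counting error only. A library with fewer than 10 cells of either population was not compared, except the 3 control cells in the comparison of genotypes and the 8 HEC of replicate 2 in that of the 4 genes within HEC. With 1 control library no test was a main result. Genes called are those differing by 2-fold or more in the same direction in every library compared, gate genes left out. A short list of sex-linked genes, among them *Xist* and *Tsix*, was left out between genotypes but not between populations. Named genes are members of 25 lists, the 15 highest and 10 lowest against other blood EC and the 10 highest and lowest against PCV and between genotypes, ranked by the ratio nearest to 0. Some genes that the rule names are not reported here. In the control library 1 UMI in the chosen cells is 64.8 CPM, in replicate 1 0.764 CPM and in replicate 2 30.5 CPM.

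edgeR 4.0.16 (trimmed mean of M values, TMM, and quasi-likelihood test) and DESeq2 1.42.0 in R 4.3.3 served as alternatives, next to other thresholds, minimum counts, thinning and leaving out a library. Scripts ran in Python 3.11.15 with scipy 1.17.1 and numpy 2.4.6, and the ratios and calls were tested on simulated data.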

Additional observations from a re-analysis of the deposited data

Results flagged for a closer look

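Of 61 genes past 2-fold between genotypes in both EC-iCOUPOE libraries in the Colec12/Ltc4s/Lyve1/Hamp cells and in other blood EC, 9 went in opposite directions in these populations. Of the genes under description these were *Ccl21a*, *Rasl11a* and *Wipf3*, and the difference was not tested. With PCV in place of other blood EC, 10 of 60 genes went in opposite directions. *Ccl21a* was higher than control in the chosen cells by 2.02 on the log2 scale in replicate 1 (1.46 to 2.65) and by 2.74 in replicate 2. Of the 25 control UMIs, 21 came from 1 of the 3 cells. Most UMIs of replicate 2 came from 2 cells with a lymphatic gate UMI. *Ccl21a* stood at −1.05 and −1.30 in other blood EC. Of those cells in control 240 of 1520 held 1 to 9 *Ccl21a* UMIs, and 20 held 10 or more. Of cells without an endothelial or fibroblast UMI, 13.4% held *Ccl21a* in control (98.8 CPM), 9.09% in replicate 1 and 13.7% in replicate 2, and of those without an endothelial UMI, most of them with fibroblast UMIs in control, 36.4% (12226 CPM), 6.80% and 13.9%. The part of free RNA was not tested. *Rasl11a* stood at −2.29 (−3.92 to 0.03) and −2.67 in the chosen cells, over 3 control UMIs, and at 1.23 and 1.24 in other blood EC. *Wipf3* stood at −2.82 (−4.83 to 0.3) and −2.09, over 2 control UMIs, and at 1.23 and 1.09 in other blood EC. For *Rasl11a* and *Wipf3* the intervals in the chosen cells include 0.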

How the results depend on the processing

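With 3 control cells, 10 cells in replicate 2 and 1 control library, the values rest mainly on replicate 1, and p-values of the fits have 1 residual degree of freedom. No paired analysis was possible because the groups share fewer than 2 replicate numbers. Of the values for single named genes under the alternatives, 764 of 820 kept direction and call, 54 lost the call, 48 of these between genotypes (38 by the adjusted p of edgeR or DESeq2 and 10 by the fold), and 2 reversed, both at a threshold of 3 UMIs: *Rflnb* against other blood EC to 0.48 and *Isg15* between genotypes to −0.50. The 820 values cover genes named against PCV, against other blood EC and between genotypes. Single genes named against HEC and lymphatic EC were not run under the alternatives. Of counts and shares, 135 of 238 stayed within their limits. The share of blood EC in replicate 1 (6.95%) became 9.08% at a threshold of 3 UMIs, 4.37% at 6 UMIs, 8.42% in cells of at least 2000 UMIs and 1.32% after thinning, when control stood at 0% and replicate 2 at 0.424%. The 264 cells became 166 at a threshold of 6 UMIs and 42 after thinning. A threshold of 6 UMIs, a lymphatic limit of 0 UMIs and cells of at least 2000 UMIs left replicate 2 with fewer than 10 cells, so 1 library was compared. Called genes then numbered 949, 903 and 887 against PCV (68 as reported), 2397, 2402 and 2178 against lymphatic EC (276) and 1505, 1318 and 1235 against other blood EC (109). Leaving out either EC-iCOUPOE library gave 651 to 887, 715 to 2357 and 1291 to 1636. With a minimum of 50 UMIs the calls were 38 against PCV, 197 against HEC (526 as reported) and 148 against lymphatic EC, and without a minimum 271, 1544 and 682, and 209 against other blood EC. HEC gave 918 at a minimum of 10 UMIs. Between genotypes 858 calls became 392 at a threshold of 6 UMIs, 509 at a lymphatic limit of 0 UMIs, 539 with TMM scaling, 513 at a minimum of 50 UMIs, and 86 to 1669 leaving out either EC-iCOUPOE library. edgeR's quasi-likelihood test called 2 of 6888 genes between genotypes after Benjamini-Hochberg adjustment, *Serpina1b* (adjusted p = 2.7475e-05) and *Aqp1* (adjusted p = 0.01942), both lower, with 316 at an unadjusted p below 0.05. DESeq2 called 0 (smallest adjusted p = 0.13772), with 51 unadjusted. The control library alone gave no value for the comparisons of populations, nor did HEC without replicate 1.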
